A study of Mus musculus with 12 samples.

Results

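The 7 MCM genes Mcm2, Mcm3, Mcm4, Mcm5, Mcm6, Mcm7 and Mcm8 were followed in spermatocytes of C57BL/6 mice. They are the rows with these symbols among the 23235 genes of the expression table. Of the 7 genes, 6 (Mcm2 to Mcm7) encode the subunits of the replicative helicase, and Mcm8 encodes a relative of them that is not a subunit. There were 12 libraries in 4 groups of 3: pachytene cells labelled Rnaseh1 knock-out (KO-labelled), WT pachytene cells, KO-labelled leptotene/zygotene (LZ) cells and WT LZ cells. Cells were sorted by fluorescence and polyadenylated RNA was read after amplification. The ages of the mice, the kind of allele and any Cre driver are not given in the sources used here.

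In dividing cells the helicase ring made of MCM2 to MCM7 is loaded onto replication origins by the origin recognition complex, CDC6 and CDT1. It is then switched on in S phase by kinases, CDC45 and the GINS complex, and it unwinds DNA ahead of the polymerases. In the male germ line the last DNA replication takes place in preleptotene cells, before the leptotene, zygotene and pachytene stages of meiotic prophase. MCM8 works with MCM9 in homologous recombination, and mice without Mcm8 are sterile with arrested spermatocytes. Rnaseh1 encodes RNase H1, an enzyme that cuts RNA paired with DNA.

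Levels are spike-in-scaled FPKM, that is, fragments per length of transcript and per size of library, multiplied by a factor per library from added ERCC RNA. The unit is per length, so levels of different genes can be set side by side. The factors were not given and were inferred from the digits of the values, with the decimal place set by each library's total. The inferred factor was 5.55 to 7.82 in KO-labelled pachytene libraries and 3.91 to 4.91 in WT pachytene libraries. It was 0.528 to 0.632 in KO-labelled LZ libraries and 0.705 to 1 in WT LZ libraries. The factor thus carries most of the difference in level between the stages. Stage changes of the MCM genes below are given on the spike-in scale and on another scale, and summed marker levels on the spike-in scale only. The depth of the libraries is unknown. On the spike-in scale the targeted gene Rnaseh1 was at 68.9 to 94.3 in KO-labelled pachytene libraries, against 51.7 to 56.8 in WT pachytene libraries. At LZ it was at 11.02 to 18.3 in KO-labelled and 16.1 to 20.5 in WT libraries. Before the spike-in scaling, the KO-labelled and WT libraries overlapped for Rnaseh1 at both stages. Its pachytene means were then 12.3 ± 4.07 FPKM in KO-labelled and 12.5 ± 0.956 FPKM in WT libraries (SD, n = 3 each). Which part of the gene is deleted is not given, so these values do not check the labels. Nothing in the labels ties the replicates to different animals, so p-values measure the spread between these libraries, which may be technical.

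Mcm7 was the MCM gene with the highest mean level in all 4 groups, and it was the member that rose most between LZ and pachytene on the spike-in scale. Its level was 417, 335 and 306 in KO-labelled pachytene libraries and 198, 206 and 264.5 in WT pachytene libraries. It was 36.8, 27.9 and 46.4 in KO-labelled LZ libraries and 69.5, 62.6 and 47.6 in WT LZ libraries. Every pachytene library was above every LZ library, and every KO-labelled pachytene library was above every WT pachytene library. Before the spike-in scaling, Mcm7 FPKM was 53.3, 48.7 and 55.1 in KO-labelled pachytene, 50.6, 50.3 and 53.8 in WT pachytene, 69.7, 49.998 and 73.3 in KO-labelled LZ and 69.5, 68.8 and 67.6 in WT LZ libraries. On that scale the pachytene groups overlapped each other, and the WT pachytene libraries were below the WT LZ libraries.

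Mcm2 was the member that differed most between the genotypes. MCM2 joins the ring and also binds histones H3 and H4 at the fork. Its level was 0.155, 3.69 and 3.69 in KO-labelled pachytene libraries and 27.2, 18.2 and 18.8 in WT pachytene libraries. It was 12.8, 7.62 and 14.8 in KO-labelled LZ libraries and 23.1, 20.9 and 17.3 in WT LZ libraries. The KO-labelled pachytene libraries were below all others, with replicate 1 lowest. Before the spike-in scaling, Mcm2 FPKM was 0.0198, 0.537 and 0.665 in KO-labelled pachytene, 6.97, 4.44 and 3.83 in WT pachytene, 24.2, 13.6 and 23.3 in KO-labelled LZ and 23.1, 22.9 and 24.5 in WT LZ libraries. The separation of KO-labelled from WT pachytene libraries was present on both scales.

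Mcm4, Mcm6 and Mcm7 encode subunits that can form a helicase core of their own. Mcm4 was at 5.49, 7.73 and 10.9 in KO-labelled pachytene libraries and at 24.5, 11.4 and 19.4 in WT pachytene libraries. At LZ it was at 9.22, 10.7 and 12.4 in KO-labelled and at 24.4, 11.3 and 15.9 in WT libraries. The pachytene groups did not overlap, although the highest KO-labelled library lay close to the lowest WT library. Mcm6, the member with the next highest mean after Mcm7 in all 4 groups, was at 61.2, 74.3 and 58.9 in KO-labelled pachytene libraries and at 67.3, 58.3 and 81.3 in WT pachytene libraries. At LZ it was at 28.2, 32.0 and 39.0 in KO-labelled and at 53.9, 43.9 and 41.2 in WT libraries. On the spike-in scale the genotypes overlapped at pachytene and were apart at LZ, where KO-labelled libraries were lower, as for 36.5% of all genes. Before the spike-in scaling, Mcm6 FPKM was 7.82 to 10.8 in KO-labelled and 14.2 to 17.2 in WT pachytene libraries. These were apart, as for 32.2% of all genes. At LZ it was then 53.5 to 61.6 in KO-labelled and 48.2 to 58.4 in WT libraries, which overlapped.

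MCM3 and MCM5 are ring subunits, and MCM5 forms with MCM2 the gate through which the ring opens around DNA. Mcm3 was at 30.1, 31.6 and 36.4 in KO-labelled pachytene libraries and at 46.0, 28.8 and 38.6 in WT pachytene libraries. At LZ it was at 17.8, 17.7 and 28.7 in KO-labelled and at 36.6, 31.9 and 27.6 in WT libraries. Mcm5 was at 19.9, 24.7 and 25.3 in KO-labelled pachytene libraries and at 30.1, 22.5 and 32.7 in WT pachytene libraries. At LZ Mcm5 was at 17.3, 23.2 and 27.6 in KO-labelled and at 47.6, 28.5 and 26.3 in WT libraries. On the spike-in scale the genotypes overlapped for both genes at both stages. Before that scaling, Mcm3 FPKM was 3.85 to 6.56 in KO-labelled and 7.04 to 11.8 in WT pachytene libraries. Mcm5 FPKM was 2.55 to 4.55 and 5.49 to 7.70. Both genes were thus apart at pachytene, as 32.2% of all genes were in that direction, and overlapped at LZ. Mcm8 was at 14.6, 10.6 and 15.6 in KO-labelled pachytene libraries and at 22.7, 16.6 and 23.1 in WT pachytene libraries. At LZ it was at 11.5, 17.4 and 12.8 in KO-labelled and at 22.1, 18.1 and 16.5 in WT libraries. The KO-labelled and WT libraries were apart for Mcm8 at pachytene only.

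**Figure D1:**
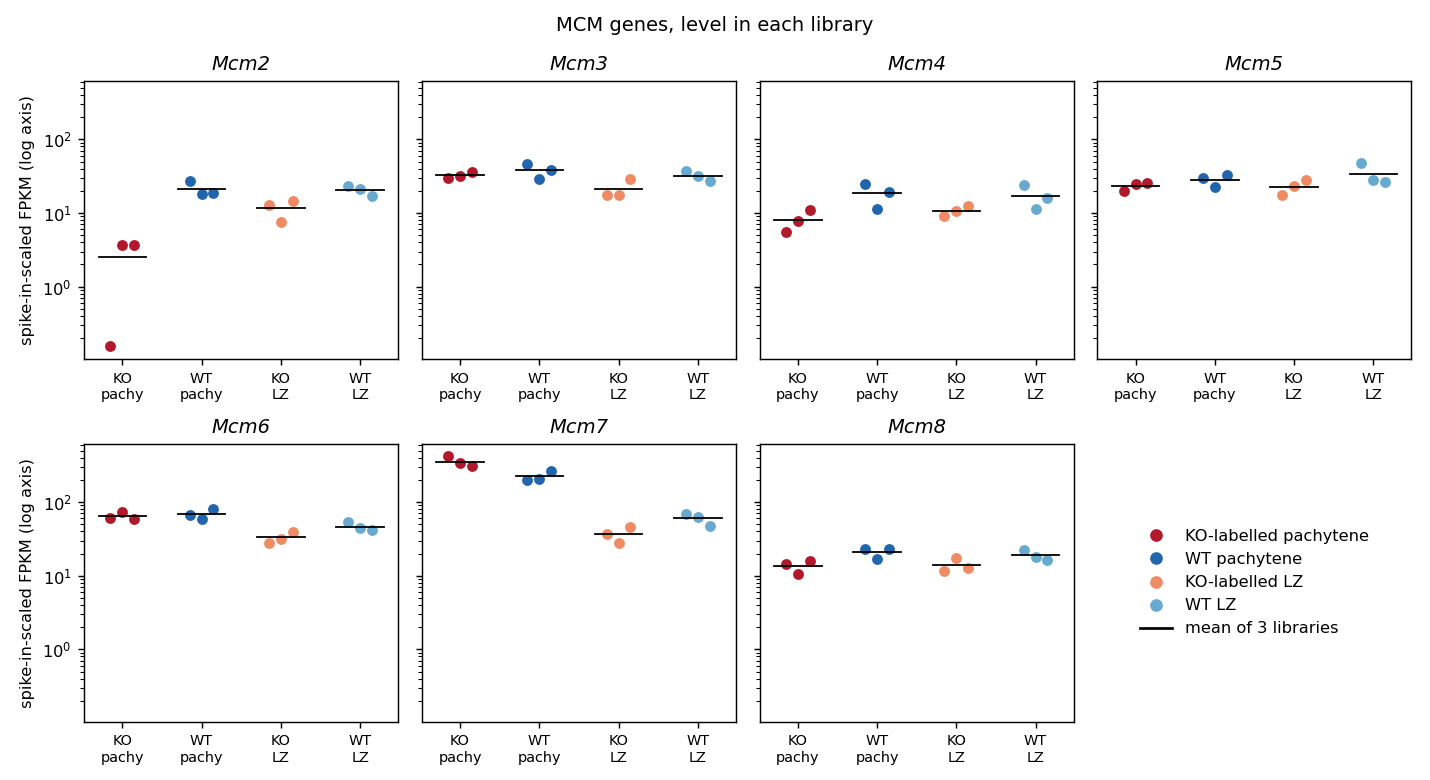
Level of each MCM gene in spike-in-scaled FPKM on a log axis, with 1 point per library and a line at the mean of the 3 libraries of a group. Mcm7 reaches 306 to 417 in KO-labelled pachytene libraries, and Mcm2 lies at 0.155 to 3.69 there, against 18.2 to 27.2 in WT pachytene libraries.

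**Figure D2:**
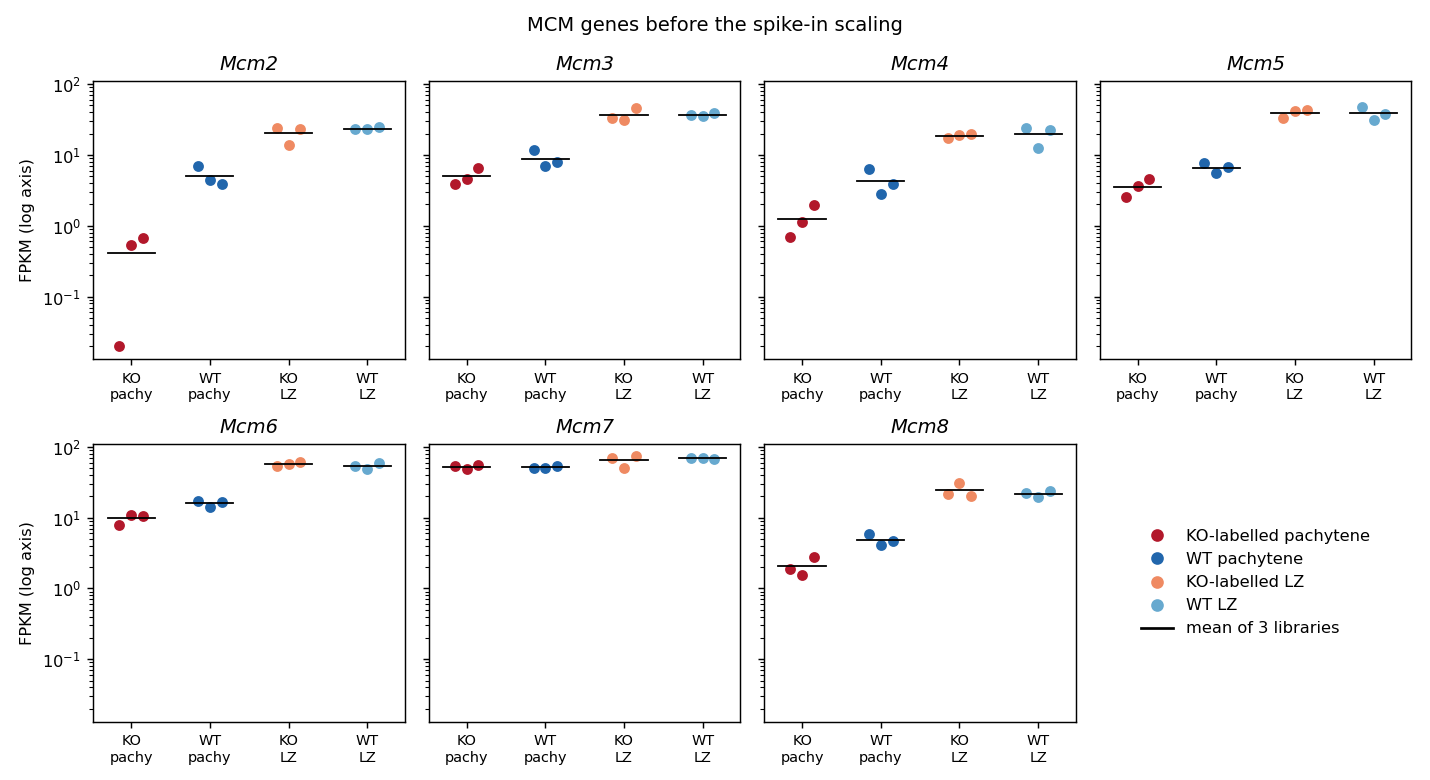
The same genes in FPKM before the spike-in scaling, on a log axis, with 1 point per library and a line at the mean of 3. Mcm7 stays between 48.7 and 73.3 in all 12 libraries, and the other 6 genes are lower in every pachytene library than in any LZ library.

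Within a group the order of the levels was only partly clear. In KO-labelled pachytene libraries, Mcm7 (352 ± 57.5, SD, n = 3), Mcm6 (64.8 ± 8.32), Mcm3 (32.7 ± 3.30) and Mcm5 (23.3 ± 2.94) followed each other without overlap. Mcm8 (13.6 ± 2.64) and Mcm4 (8.04 ± 2.72) overlapped there, and Mcm2 (2.51 ± 2.04) was below both. In WT pachytene libraries Mcm7 (223 ± 36.4) and Mcm6 (69.0 ± 11.6) were apart from each other and from the rest, while each of Mcm3, Mcm5, Mcm2, Mcm8 and Mcm4 overlapped its neighbour in the order, at means of 37.8 down to 18.4. In KO-labelled LZ libraries Mcm7 (37.0 ± 9.23) overlapped Mcm6 (33.0 ± 5.45), and the lowest mean was 10.8 ± 1.57 for Mcm4. In WT LZ libraries Mcm7 (59.9 ± 11.2), Mcm6 (46.3 ± 6.69), Mcm5 (34.1 ± 11.7) and Mcm3 (32.0 ± 4.54) overlapped their neighbours, and Mcm2 (20.4 ± 2.94) led the lower genes.

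Each subunit's share in the summed level of Mcm2 to Mcm7 is a ratio within a library and does not depend on the scaling between libraries. Mcm7 made up 78.1%, 70.2% and 69.4% of the sum in KO-labelled pachytene libraries and 50.4%, 59.6% and 58.1% in WT pachytene libraries. It made up 30.1%, 23.4% and 27.5% in KO-labelled LZ libraries and 27.3%, 31.5% and 27.1% in WT LZ libraries. The share of Mcm7 was therefore higher in every pachytene library than in every LZ library, and higher in every KO-labelled than in every WT pachytene library. Mcm2 made up 0.029%, 0.774% and 0.836% in KO-labelled pachytene libraries and 6.93%, 5.27% and 4.14% in WT pachytene libraries. It made up 10.4%, 6.40% and 8.74% in KO-labelled LZ libraries and 9.05%, 10.5% and 9.82% in WT LZ libraries. At LZ the genotypes overlapped for both shares. The ratio of Mcm7 to the geometric mean of Mcm3 to Mcm6 was 19.7, 12.9 and 11.03 in KO-labelled pachytene libraries and 5.09, 8.03 and 7.04 in WT pachytene libraries, against 1.44 to 2.18 in KO-labelled LZ and 1.79 to 2.42 in WT LZ libraries. Since these ratios use Mcm3 to Mcm6 as the base, they show unequal levels among the subunit genes and not which of them changed. The summed level itself was 484 ± 46.7 in KO-labelled pachytene libraries, 398 ± 55.3 in WT pachytene libraries, 137 ± 27.9 in KO-labelled LZ libraries and 210 ± 40.8 in WT LZ libraries. Before the spike-in scaling the order of the stages turned, and so did that of the genotype means at pachytene. The sums were then 72.3 ± 6.21 and 92.5 ± 8.15 FPKM in KO-labelled and WT pachytene libraries. They were 237 ± 27.3 and 241 ± 19.7 FPKM in KO-labelled and WT LZ libraries (SD, n = 3 each). At pachytene the genotypes overlapped on the spike-in scale (441 to 534 and 345 to 455) but not before it (68.2 to 79.5 and 84.3 to 101).

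**Figure D3:**
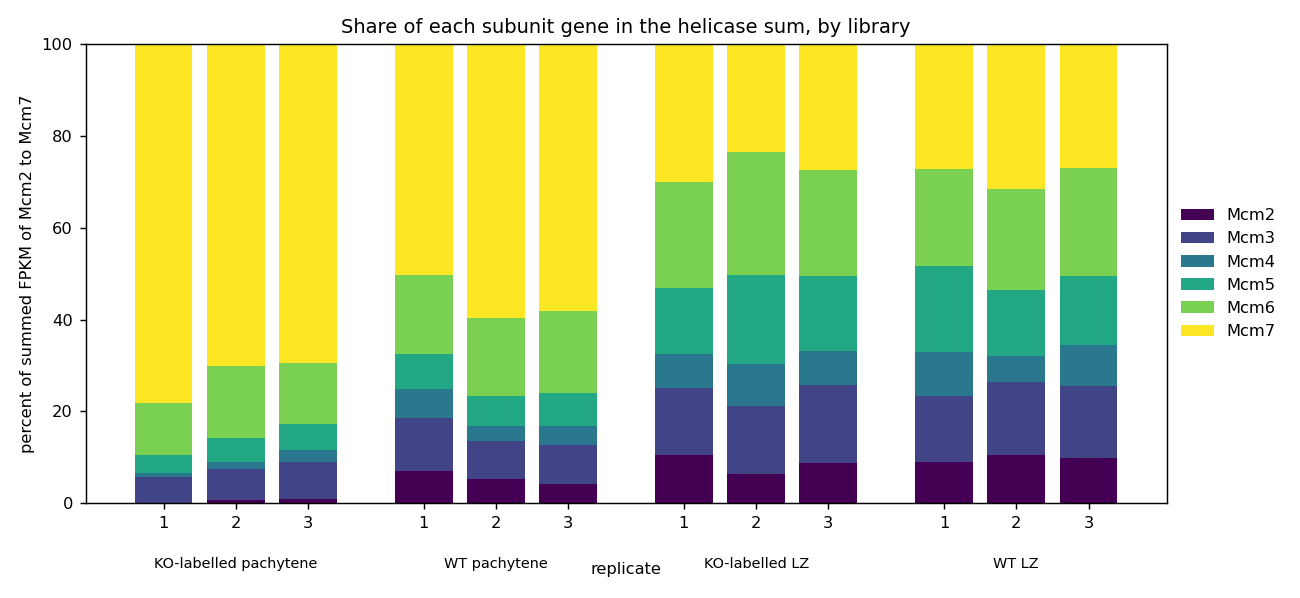
Share of each of Mcm2 to Mcm7 in their summed FPKM, in percent, as 1 stacked bar per library, with the 3 replicates of each of the 4 groups. Mcm7 fills 69.4% to 78.1% of the bars of KO-labelled pachytene libraries and 50.4% to 59.6% of those of WT pachytene libraries, and 23.4% to 31.5% of the LZ bars.

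KO-labelled and WT cells were then compared at pachytene, in a limma fit over all 15400 genes tested. Changes are on the log2(value + 1) scale, all p-values are two-sided, and a gene is called at a Benjamini-Hochberg adjusted p under 0.05. Of the 7 members, 2 were called lower and 1 was called higher in KO-labelled cells, while 14.3% of all genes were called lower and 24.6% higher. Mcm2 fell by 2.91 (SE 0.46, adjusted p = 0.00210 by limma), which is -3.28 relative to the median change of all genes, 0.37. Its mean was 2.51 ± 2.04 in KO-labelled and 21.4 ± 5.05 in WT pachytene libraries (SD, n = 3 each), a ratio of 0.117. Mcm4 fell by 1.09 (SE 0.34, adjusted p = 0.0287 by limma), with means of 8.04 ± 2.72 in KO-labelled and 18.4 ± 6.61 in WT libraries. Mcm7 rose by 0.66 (SE 0.24, adjusted p = 0.0423 by limma), which is 0.29 above the median of all genes. In bulk libraries, fewer cells of a type and less RNA per cell cannot be told apart.

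The other 4 members had changes of -0.18 for Mcm3, -0.27 for Mcm5, -0.08 for Mcm6 and -0.58 for Mcm8, with limma adjusted p of 0.0776 to 0.761. The 3 KO-labelled libraries were all above the 3 WT libraries for Mcm7, as for 36.4% of all genes, and all below them for Mcm2, Mcm4 and Mcm8, as for 18.0%. The median change of the 7 members was -0.27, beside 0.37 over all genes. With libraries rescaled so that the typical gene has the same level in each (median-ratio scaling), 3 members were called lower, beside 9.68% of all genes, and 0 higher, beside 3.28%. The 3 were Mcm2 at -2.55, Mcm4 at -1.25 and Mcm8 at -0.84, and Mcm7 was at 0.30.

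The call of Mcm2 held without each of the 6 pachytene libraries in turn, at -3.25 to -2.23. That of Mcm4 was lost without KO-labelled replicate 1 (-0.87), KO-labelled replicate 2 (-1.08), WT replicate 1 (-0.86) or WT replicate 3 (-1.02) and with quantile normalisation (-0.80), and its limma adjusted p ranged from 0.0170 to 0.118 over all alternatives. The call of Mcm7 was lost without KO-labelled replicate 1 (0.53), KO-labelled replicate 2 (0.69), WT replicate 1 (0.58) or WT replicate 2 (0.61). It was also lost with the replicate block, with no trend in the variances and with a pseudocount of 0.1, each at 0.66, with median-ratio scaling (0.30), with quantile normalisation (0.14), at the same sum per library (0.084) and before the ERCC scaling (0.020), with limma adjusted p of 0.0284 to 0.951 over all alternatives.

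Markers of other cells were counted in the same comparison, in which 14.3% of all genes were called lower and 24.6% higher. Of 16 tested markers of spermatogonia and meiotic entry, 11 were called lower and 2 higher (Id4 and Dmrtb1) in KO-labelled pachytene cells. After median-ratio scaling 10 were lower and 2 higher, beside 9.68% and 3.28% of all genes. Stra8, a gene of meiotic entry, fell by 3.14 (adjusted p = 0.0260 by limma), and Dmrt1, a regulator of spermatogonia, fell by 2.91 (adjusted p = 0.00175 by limma). The summed level of the list of 17 was 1772 to 2899 in KO-labelled and 1451 to 1614 in WT pachytene libraries, so that the sum was higher where most of its genes were lower. Ret and Lin28a were under 1 in all 3 KO-labelled pachytene libraries, and none of the 17 was at 0 in all libraries of a group. Of 10 round spermatid markers, 9 were called lower and 0 higher, and their summed level was 1801 to 9556 in KO-labelled and 37339 to 45352 in WT pachytene libraries. Of 16 leptotene and zygotene markers, 5 were lower and 2 higher, and of 12 pachytene markers, 0 were lower and 8 higher. Of 7 tested peritubular and endothelial markers, 4 were lower and 1 higher. The Leydig, Sertoli and blood lists had 0, 0 and 1 lower and 2, 0 and 1 higher, of 7, 8 and 8 tested. The part of other cells in the changes of Mcm2, Mcm4 and Mcm7 was not tested.

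At LZ, 0 of the 7 members were called in either direction by limma, while 12.9% of all genes were called lower and 0.136% higher in KO-labelled cells. At an unadjusted p under 0.05, 3 members were lower by limma (Mcm3, Mcm6 and Mcm7), beside 33.0% of all genes at that threshold. The changes ran from -0.79 for Mcm2 to -0.43 for Mcm8, with a median of -0.57 beside -0.43 over all genes, and limma adjusted p of 0.0646 to 0.255. The 3 KO-labelled libraries were all below the 3 WT libraries for Mcm2, Mcm6 and Mcm7, as for 36.5% of all genes, and all above them for 0 members, as for 0.935%. After median-ratio scaling 0 were called, beside 0.39% of genes higher and 0.688% lower, and the changes ran from -0.25 to 0.13. Without WT replicate 3, Mcm7 was called lower on the spike-in scale, at -0.85 (adjusted p = 0.0373 by limma, in a range of 0.0373 to 0.959 over all alternatives).

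Whether the KO effect was the same at both stages was tested as an interaction, the effect at pachytene minus that at LZ. It was called for Mcm2, at -2.12 (SE 0.65, adjusted p = 0.0224 by limma), and for Mcm7, at 1.35 (SE 0.33, adjusted p = 0.00984 by limma). Of all genes, 3.49% were called in the negative and 34.9% in the positive direction, and the median over all genes was 0.72. The other 5 members had differences of -0.51 to 0.40 and limma adjusted p of 0.317 to 0.759. After median-ratio scaling 1 member, Mcm2, was called, at -2.30, beside 4.39% of genes in the negative direction. In the positive direction 0 members were called, beside 2.29%, and Mcm7 was at 0.42. The Mcm2 difference lost its call without WT pachytene replicate 1 (-1.94), with quantile normalisation (-2.05) and with a pseudocount of 0.1 (-2.94), and its limma adjusted p ranged from 0.0111 to 0.0575 over all alternatives.

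**Figure D4:**
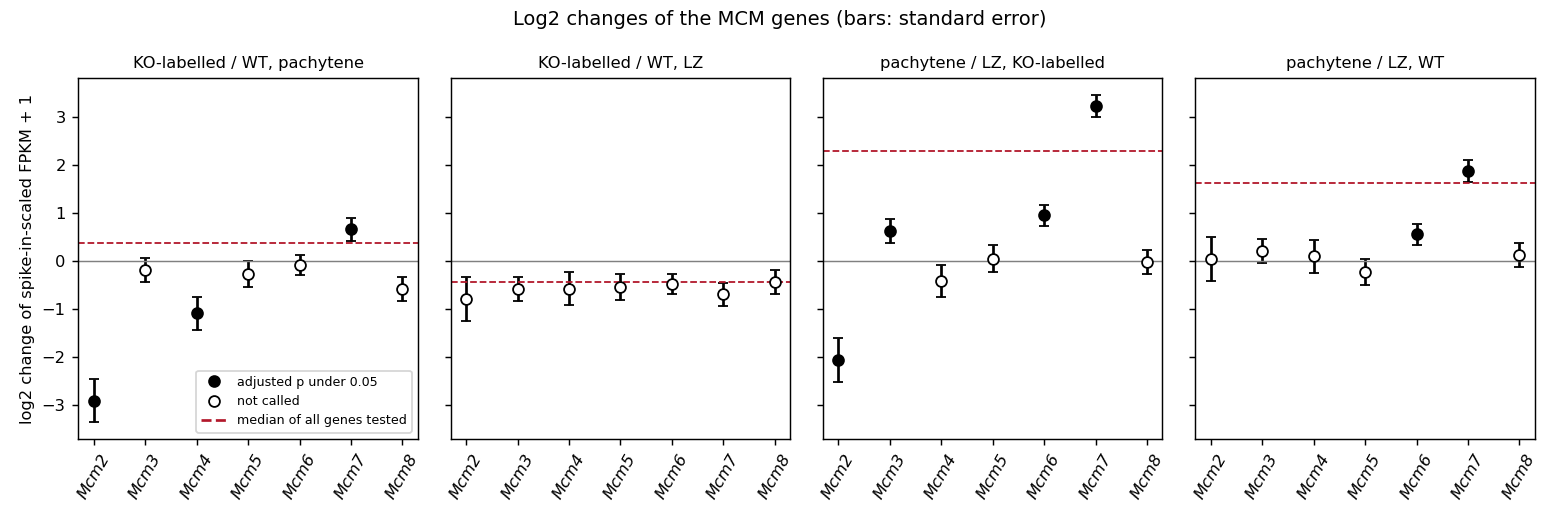
Log2 change of each MCM gene on the spike-in scale in 4 comparisons, with the standard error of limma as bars, filled where the adjusted p was under 0.05, and a dashed line at the median of all genes tested. Mcm2 lies at -2.91 and Mcm4 at -1.09 between the genotypes at pachytene, and Mcm7 is the only member above the dashed line in both stage comparisons.

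Pachytene and LZ cells were compared within each genotype. The same libraries enter these comparisons and those between genotypes. In KO-labelled cells 3 members were called higher and 1 lower at pachytene on the spike-in scale, beside 76.8% and 2.83% of all genes. Mcm7 rose by 3.23 (SE 0.24, adjusted p = 1.26e-08), Mcm6 by 0.96 (SE 0.22, adjusted p = 0.000929) and Mcm3 by 0.62 (SE 0.25, adjusted p = 0.0353, all by limma), whereas before the spike-in scaling they were at -0.27, -2.45 and -2.67. Mcm2 fell by 2.07 (SE 0.46, adjusted p = 0.000814 by limma), and it was lower under each scaling tried. Mcm4, Mcm5 and Mcm8 had changes of -0.41, 0.05 and -0.02. The call of Mcm3 was lost without KO-labelled pachytene replicate 2 (0.64) or 3 (0.54) and without KO-labelled LZ replicate 1 (0.51) or 2 (0.51).

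In WT cells 2 members were called higher and 0 lower at pachytene on the spike-in scale, beside 80.9% and 0.487% of all genes. Mcm7 rose by 1.88 (SE 0.24, adjusted p = 6.17e-06 by limma) and Mcm6 by 0.56 (SE 0.22, adjusted p = 0.0273 by limma), and before the spike-in scaling they were at -0.41 and -1.68. The other 5 had changes of -0.22 to 0.22 with limma adjusted p of 0.426 to 0.917. At an unadjusted p under 0.05, 0 members were lower by limma, beside 0.526% of all genes at that threshold. The call of Mcm6 was lost without WT pachytene replicate 1 (0.57) or 3 (0.44) and without WT LZ replicate 2 (0.53) or 3 (0.48).

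Against the bulk of the genes, most members were low at pachytene. The median change of all genes between the stages was 2.29 in KO-labelled and 1.64 in WT cells, and the median over the 7 members was 0.05 in KO-labelled and 0.13 in WT cells. Mcm7 was above the median of all genes, by 0.94 in KO-labelled and 0.24 in WT cells, and the other 6 were below it, at -4.36 to -1.34 relative to it in KO-labelled cells and -1.86 to -1.08 in WT cells. All 3 pachytene libraries were above all 3 LZ libraries for 3 members in KO-labelled cells, as for 75.9% of genes, and for 2 in WT cells, as for 83.0%. They were all below for 1 member in KO-labelled cells, as for 2.84% of genes, and for 0 in WT cells, as for 0.864%.

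After median-ratio scaling, 6 members were called lower at pachytene in KO-labelled cells, beside 29.7% of all genes, at -4.20 for Mcm2 to -1.99 for Mcm6. In WT cells 6 members were also called lower, beside 18.1%, at -2.21 for Mcm5 to -1.47 for Mcm6. No member was called higher, beside 31.1% of genes in KO-labelled and 20.2% in WT cells. In both genotypes the 6 were Mcm2, Mcm3, Mcm4, Mcm5, Mcm6 and Mcm8, and Mcm7 was not called, at 0.25 in KO-labelled and -0.16 in WT cells.

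The stage labels were set against markers. Of 12 pachytene markers, 12 were called higher at pachytene than at LZ in each genotype on the spike-in scale, where 76.8% of all genes were higher in KO-labelled and 80.9% in WT cells. After median-ratio scaling 11 of the 12 were higher in KO-labelled cells, beside 31.1% of all genes, and 8 in WT cells, beside 20.2%. Of 16 leptotene and zygotene markers, 8 were called higher and 6 lower at pachytene in KO-labelled cells, beside 2.83% of all genes lower. In WT cells 7 were called higher and 5 lower, beside 0.487% of all genes lower. With median ratios the counts were 2 higher and 14 lower in KO-labelled cells, beside 29.7% of all genes lower, and 2 higher and 12 lower in WT cells, beside 18.1% lower. On the spike-in scale, summed levels of 3 lists of cells outside the germ line were higher in all pachytene than in all LZ libraries. That of the Sertoli cell list was not. The summed level of 7 Leydig cell markers was 1249 to 5347 in KO-labelled pachytene and 2298 to 8622 in WT pachytene libraries, against 6.01 to 90.1 in KO-labelled LZ and 4.07 to 19.9 in WT LZ libraries. That of 8 peritubular and endothelial markers was 176 to 221 in KO-labelled pachytene and 546 to 710 in WT pachytene libraries, against 2.46 to 21.4 in KO-labelled LZ and 2.16 to 30.4 in WT LZ libraries. That of 9 blood and macrophage markers was 410 to 615 in KO-labelled pachytene and 142 to 814 in WT pachytene libraries, against 3.41 to 8.07 in KO-labelled LZ and 8.10 to 37.2 in WT LZ libraries. The sum of 9 Sertoli cell markers was 482 to 561 in KO-labelled pachytene and 735 to 1044 in WT pachytene libraries, against 273 to 671 in KO-labelled LZ and 226 to 542 in WT LZ libraries. Of the 8 Sertoli markers tested, 1 was called higher at pachytene in KO-labelled and 6 in WT cells, and after median-ratio scaling 7 were lower in KO-labelled cells and 0 were called in WT cells. With median ratios, 5 of 7 tested Leydig markers were higher in KO-labelled and 6 in WT cells. Of 7 peritubular and endothelial markers, 1 was higher in KO-labelled and 6 in WT cells. Of 8 blood markers, 7 and 5 were higher. In each of these lists 1 was lower in KO-labelled cells, and in WT cells 0, 0 and 1 were. Of all genes, 31.1% and 20.2% were then higher and 29.7% and 18.1% lower. The part of these cells in the stage changes of the MCM genes was not tested.

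Mcm8 was set beside the core subunits and its partner Mcm9. The ratio of Mcm8 to the geometric mean of Mcm2 to Mcm7 was 0.950, 0.370 and 0.529 in KO-labelled pachytene libraries and 0.473, 0.485 and 0.498 in WT pachytene libraries. It was 0.626, 0.987 and 0.505 in KO-labelled LZ and 0.563, 0.625 and 0.611 in WT LZ libraries, so that genotypes overlapped at both stages. With the arithmetic mean, which the low Mcm2 of KO-labelled pachytene replicate 1 enters with less weight, the ratio was 0.164, 0.134 and 0.213 in KO-labelled pachytene and 0.347, 0.289 and 0.304 in WT pachytene libraries, and these did not overlap. At LZ it was 0.563, 0.876 and 0.454 in KO-labelled and 0.520, 0.545 and 0.564 in WT libraries, which overlapped. Mcm9 had means of 11.3 ± 3.12 in KO-labelled pachytene and 6.60 ± 3.10 in WT pachytene libraries, against 0.684 ± 0.501 in KO-labelled LZ and 1.12 ± 0.436 in WT LZ libraries (SD, n = 3 each). In WT cells Mcm9 rose by 1.79 between LZ and pachytene (SE 0.34, adjusted p = 0.000270 by limma), and it was at 0.34 and not called after median-ratio scaling. The expression table lists Mcmdc2, a meiotic MCM-domain gene, under the older name 6030422M02Rik, and it had means of 25.7 ± 4.003 in KO-labelled pachytene, 22.4 ± 6.27 in WT pachytene, 3.93 ± 1.74 in KO-labelled LZ and 3.51 ± 0.292 in WT LZ libraries. It rose by 2.34 in WT cells between the stages (SE 0.31, adjusted p = 1.07e-05 by limma), and it was at 0.51 and not called after median-ratio scaling. Mcmbp, whose product binds MCM subunits, fell by 0.93 in KO-labelled pachytene cells (SE 0.27, adjusted p = 0.0216 by limma), with means of 15.9 ± 3.17 in KO-labelled and 30.8 ± 1.88 in WT libraries, and it was the 1 called gene of the 4 tested relatives.

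Genes that load and switch on the helicase were called at shares near those of all genes in KO-labelled pachytene cells. Of 9 origin licensing genes, 3 were called higher and 1 lower in KO-labelled pachytene cells, beside 24.6% and 14.3% of all genes. Orc3 and Orc2, subunits of the origin recognition complex, rose by 0.82 and 0.64, and Gmnn, which encodes the CDT1 inhibitor geminin, rose by 0.74. Cdt1, the loader that carries the helicase to origins, fell by 1.59 (SE 0.27, adjusted p = 0.00322 by limma), with means of 4.10 ± 0.997 in KO-labelled and 14.1 ± 1.16 in WT pachytene libraries. The median change was 0.41 over the licensing genes and 0.59 over 11 helicase activation genes, beside 0.37 over all genes. Of the 11 activation genes, 4 were called higher and 1 lower. Gins3, Gins2 and Mtbp rose by 1.05, 0.89 and 0.70, and Recql4 fell by 1.13, at 0.519 ± 0.656 in KO-labelled and 2.24 ± 1.07 in WT libraries (SD, n = 3 each).

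Of 28 replication fork genes, 11 were called higher and 3 lower in KO-labelled pachytene cells, beside 24.6% and 14.3% of all genes. Fen1, the flap nuclease, fell by 1.66 (SE 0.29, adjusted p = 0.00350 by limma), with means of 5.23 ± 1.74 in KO-labelled and 18.2 ± 0.594 in WT libraries. Tipin, a fork protection factor, fell by 1.35 and Pola1, the catalytic subunit of the primase polymerase, by 1.01, whereas Pold2 rose by 0.93. Pola1 was low in both groups, at 0.736 ± 0.499 in KO-labelled and 2.47 ± 0.807 in WT libraries. Of 13 genes of the E2F and RB families, regulators of S phase genes, 4 were called lower and 1 higher, beside the same shares of all genes. Together with the MCM relatives, 19 of 65 genes (29.2%) were called higher and 10 (15.4%) lower. Rbl2, E2f3, E2f6 and E2f5 fell by 1.91, 1.11, 0.97 and 0.94. E2f3 was near the floor, at 0.162 ± 0.147 in KO-labelled and 1.52 ± 0.407 in WT pachytene libraries. It was at -0.68 and not called after median-ratio scaling. After median-ratio scaling 0 of the 65 were called higher, beside 3.28% of all genes. Called lower were 1 of the licensing, 0 of the activation, 5 of the fork and 3 of the E2F and RB genes and 1 relative, 15.4% of the 65, beside 9.68% of all genes. Cdt1, Fen1, Tipin and Rbl2 stayed called without each library in turn. Of the 17 called genes of these lists and of the relatives that the naming rule picked, 12 lost the call without KO-labelled replicate 1, 13 without KO-labelled replicate 2, 1 without KO-labelled replicate 3, 12 without WT replicate 1, 8 without WT replicate 2 and 0 without WT replicate 3.

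**Figure D5:**
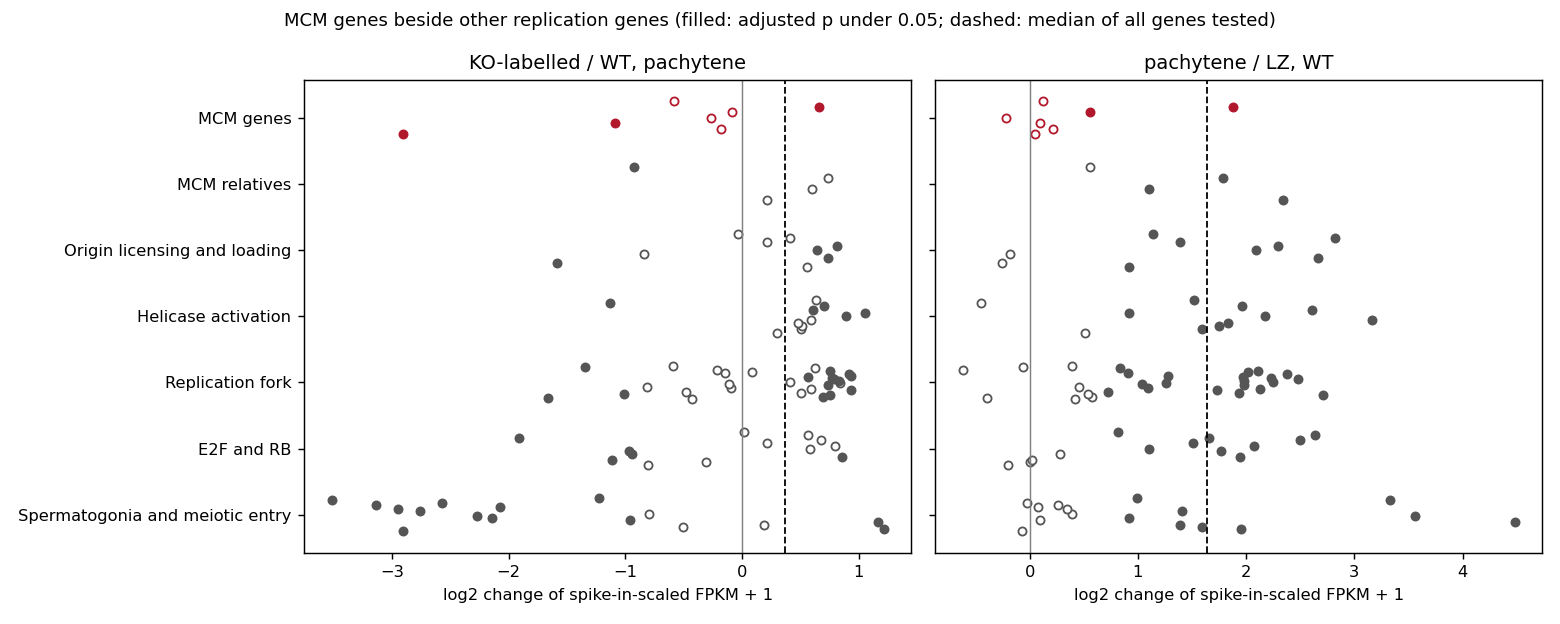
Log2 change on the spike-in scale of each tested MCM gene, of each tested gene in 5 lists of related genes and of spermatogonial markers, for KO-labelled against WT at pachytene and for pachytene against LZ in WT cells. Filled points had an adjusted p under 0.05, and the dashed line marks the median of all genes, at 0.37 and 1.64; of the 7 MCM genes, Mcm7 alone lies above that line in both panels.

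At LZ, 7 of the 65 related genes (10.8%) were called lower and 0 higher in KO-labelled cells, beside 12.9% and 0.136% of all genes. Cdc6, a loader of the helicase, fell by 1.02, with means of 1.85 ± 0.707 in KO-labelled and 4.71 ± 0.891 in WT LZ libraries. Cdt1 fell by 0.98, Gins4 by 0.97, Rpa1 by 1.13, Pole3 by 0.86, Pola2 by 0.83 and Rfc2 by 0.78, with adjusted p of 0.0197 to 0.0361 by limma. All 7 lost their calls after median-ratio scaling, and also without KO-labelled replicate 2, KO-labelled replicate 3, WT replicate 1 or WT replicate 2. Without KO-labelled replicate 1, 3 lost them, and without WT replicate 3, 0 did. In the lists with no call, the most abundant genes were Mcmbp, at -0.34 on the spike-in scale and 0.23 after median-ratio scaling, and Tfdp1, at -0.73 and -0.19. In the same comparison 5 of 10 round spermatid markers were lower, with sums of 790 to 5518 in KO-labelled and 14719 to 31784 in WT LZ libraries. Of 12 pachytene markers 7 were lower, with sums of 1597 to 1930 in KO-labelled and 2715 to 4077 in WT LZ libraries. No marker of either list was higher, after median-ratio scaling 0 of either list were called, and their part in the LZ changes was not tested.

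Between the stages in WT cells, 48 of the 65 related genes (73.8%) rose on the spike-in scale where most MCM genes were not called. Higher at pachytene were 7 of 9 licensing, 9 of 11 activation, 20 of 28 fork and 9 of 13 E2F and RB genes, and 0 were lower, beside 80.9% and 0.487% of all genes. Pcna, the sliding clamp, rose by 2.71, with means of 1984 ± 315 in WT pachytene and 301 ± 28.7 in WT LZ libraries. Gins1 and Gins4, subunits of the GINS complex, rose by 3.16 and 2.61, and Orc5 rose by 2.82. Orc3 and Gmnn rose by 2.30 and 2.66, Rfc2, of the clamp loader, by 2.48, and Rpa1, of the single-strand binding complex, by 2.37. Tfdp1, the partner of E2F factors, rose by 2.64, Rbl1 by 2.50 and E2f8 by 2.08. Gins2, Mtbp, Orc2, Prim2 and E2f4 rose by 2.17, 1.96, 2.09, 2.24 and 1.95 on the spike-in scale, and before that scaling all 5 were below 0, at -0.27 to -0.031. Mcm10, a fork factor outside the MCM family by sequence, rose by 1.10 on the spike-in scale and was at -0.66 after median-ratio scaling. After median-ratio scaling the counts were 2 higher and 4 lower for licensing, 2 and 4 for activation, 1 and 14 for fork and 1 and 5 for E2F and RB genes. With the relatives, 9.23% of the 65 were higher and 43.1% lower, beside 20.2% and 18.1% of all genes. Pcna was then at 0.65 and Gins1 at 1.10, both called, while Mcm2 to Mcm6 were called lower. Orc5, Gmnn, Gins4 and Tfdp1 were also called higher, at 0.79, 0.60, 0.55 and 0.63. Orc3, Rfc2, Rpa1, Rbl1, E2f8, Orc2, Gins2 and Prim2 were not called, at 0.055 to 0.57. Mtbp and E2f4 were not called either, at -0.028 and -0.037.

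The 5 other genes whose profile over the 12 libraries was nearest to the mean profile of Mcm2 to Mcm7 were Wdhd1, Tnks2, Hells, Lamp2 and Unc119b. Their root mean square distance was 0.15 to 0.17 in log2 units, beside a median of 1.22 over the 10825 genes with a mean of at least 5. Wdhd1 encodes a protein that links the helicase to the primase polymerase, and HELLS is a chromatin remodeller. Wdhd1 had means of 14.8 ± 2.69 in KO-labelled pachytene, 23.1 ± 6.62 in WT pachytene, 10.2 ± 3.35 in KO-labelled LZ and 17.1 ± 2.55 in WT LZ libraries. Mcm3 was at 0.20 from that mean profile, and Mcm2 and Mcm7 were at 1.15 and 1.19.

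The profile of Mcm2 alone was nearest to Dmrt1, Sohlh1, Zrsr2, Tsc22d3 and Uchl1, at distances of 0.28 to 0.35, a ranking added after the values were seen. Dmrt1, Sohlh1 and Uchl1 stand in the list of spermatogonial markers. Sohlh1 was at 0.904, 7.20 and 10.4 in KO-labelled pachytene libraries and at 39.8, 45.6 and 41.9 in WT pachytene libraries, with replicate 1 lowest in the KO-labelled group, as for Mcm2. The ranking used these same 12 libraries, so the shared low replicate is part of what was ranked and adds nothing to it. The profile of Mcm7 alone, in a ranking likewise added, was nearest to Uqcc, Glyr1, Trmt1, Rce1 and Maea, at 0.08 to 0.11, where the median over genes was 0.56.

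Mcm7 hosts 3 microRNA genes. In the RefSeq table of build GRCm38.p6 (a later build than the mm9 of the files) they lie on the minus strand in introns of 2 of the 7 coding Mcm7 transcripts of the GENCODE annotation of the same build, with no overlap of an exon. The mature sequences are shown because they sit inside the member with the highest level. Capitals mark the seed, bases 2 to 8.

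mmu-miR-106b-5p, chr5:138165787-138165807: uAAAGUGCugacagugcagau

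mmu-miR-93-5p, chr5:138165574-138165596: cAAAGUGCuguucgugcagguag

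mmu-miR-25-3p, chr5:138165332-138165353: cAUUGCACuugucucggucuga

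The microRNAs miR-106b-5p and miR-93-5p share a seed, and miR-25-3p has another. The rows of the microRNA genes themselves, Mir106b, Mir93 and Mir25, are listed at 0 in all 12 libraries. These libraries were made from polyadenylated RNA and give no level of mature microRNAs.

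Several members have close or overlapping neighbours in that annotation. Mcm7 overlaps Cops6 by 64 bases on the opposite strand and Ap4m1 by 421 bases. The strand used in counting is not given, so reads of these overlaps cannot be told apart. Cops6, a subunit of the COP9 signalosome, had means of 2257 ± 424 in KO-labelled pachytene, 1359 ± 243 in WT pachytene, 142 ± 27.0 in KO-labelled LZ and 263 ± 30.7 in WT LZ libraries, and was above Mcm7 in all 12. Mcm4 and Prkdc start head to head 466 bases apart, and Mcm8 and Trmt6 86 bases apart. Prkdc, which encodes a DNA repair kinase, was at 8.32 ± 0.328 in KO-labelled and 6.94 ± 1.73 in WT pachytene libraries, where Mcm4 fell. Trmt6, which encodes a tRNA methyltransferase subunit, was at 33.1 ± 1.33 in KO-labelled and 38.5 ± 1.24 in WT pachytene libraries.

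The promoters of Mcm2, Mcm6 and Mcm7 are shown as examples of members called between the stages on the spike-in scale. Mcm2 was called in KO-labelled cells only, and Mcm3, also called there, is not shown. Each is the window from 250 bases before to 50 bases after a RefSeq start in build GRCm38.p6, on the minus strand, and capitals mark E2F letters, which were searched on both strands as TTTCCCGC, TTTGGCGC, TTTCGCGC and TTTGCCGC.

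Mcm2, chr6:88898731-88899030: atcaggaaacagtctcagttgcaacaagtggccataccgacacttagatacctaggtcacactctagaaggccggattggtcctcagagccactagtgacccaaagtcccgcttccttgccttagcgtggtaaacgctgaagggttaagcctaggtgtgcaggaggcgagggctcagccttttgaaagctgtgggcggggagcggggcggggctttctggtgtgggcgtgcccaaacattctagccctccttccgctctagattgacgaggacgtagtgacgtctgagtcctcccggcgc

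Mcm6, chr1:128359656-128359955: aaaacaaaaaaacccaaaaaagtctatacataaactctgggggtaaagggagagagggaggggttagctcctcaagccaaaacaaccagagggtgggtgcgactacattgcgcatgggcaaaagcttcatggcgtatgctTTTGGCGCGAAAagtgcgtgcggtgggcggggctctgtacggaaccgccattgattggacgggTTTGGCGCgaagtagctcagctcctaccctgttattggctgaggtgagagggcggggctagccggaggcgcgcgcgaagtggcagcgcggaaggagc

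Mcm7, chr5:138171834-138172133: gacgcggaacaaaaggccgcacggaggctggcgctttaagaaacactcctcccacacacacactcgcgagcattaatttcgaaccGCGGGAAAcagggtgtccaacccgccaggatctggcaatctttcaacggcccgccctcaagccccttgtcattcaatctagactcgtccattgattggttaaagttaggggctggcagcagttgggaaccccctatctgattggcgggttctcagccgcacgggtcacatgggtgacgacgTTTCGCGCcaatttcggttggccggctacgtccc

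E2F letters, known from promoters of S phase genes, were found in 0 places for Mcm2, in 3 for Mcm6 (2 of them overlapping) and in 2 for Mcm7. Mcm3 and Mcm5 had 2 each, overlapping in Mcm5, and Mcm8 had 1, while the other listed start of Mcm7 had 0. Of 32851 promoters in the table, 2.26% held at least 1. The letters CCAAT, on either strand, stood in the windows of all 6 genes found in the table, as in 37.4% of promoters. The MYB letters CNGTTG, on either strand, stood in 3 places at the shown Mcm7 start, in 1 each for Mcm2, Mcm3 and Mcm5, and in 35.0% of promoters. Mcm4 was not matched. A match is a description of these letters and not a site.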

How the data were processed

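RNA of 12 libraries was analysed, 3 in each of 4 groups taken from the sample titles. Per the submitters' processing notes, the files come from mm9, Cufflinks 2.2.1 and TopHat2 2.1.1. Each deposited value is a gene's FPKM after the authors' scaling of libraries by ERCC spike-in RNA, per the labels. The annotation and the scaling formula are not given in the sources used here. The table has 4 columns without a name, which were not used. FPKM before the scaling was inferred and not given. Each library's factor was taken as the ratio of whole numbers that left its values with at most 6 significant digits. The decimal place was set by the library's total, and each value was divided by the factor.

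The fit held 15400 genes that reached 1 FPKM in 3 or more libraries, and all 7 members passed. log2(value + 1) entered limma 3.58.1 (R 4.3.3) with a mean for each of the 4 groups and variances moderated along the mean level. The two-sided p-values were adjusted by the Benjamini-Hochberg method over all genes. The steps were tested on simulated data. No read counts are given, so depth and intervals from counting are unknown.

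The members and gene lists were chosen with earlier results of these data known. All 7 members are named. From each list, in the genotype comparisons and the WT stage comparison, up to 4 called genes with the largest change are named, or the most abundant gene where none was called. Lists were matched by symbol and then by RefSeq synonym. Shared replicate numbers are not stated to pair the libraries, so the main fit treated them as unpaired. Alternatives were other pseudocounts, filters and scalings, the replicate block, variances moderated without a trend, fits on fewer groups and leaving out each library.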

Additional observations from a re-analysis of the deposited data

Results flagged for a closer look

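For Mcm2 the KO effect differed between the stages by -2.12 on the log2 scale (SE 0.65, adjusted p = 0.0224 by limma). KO-labelled libraries were lower than WT libraries by 2.91 at pachytene and by 0.79 at LZ. All 3 KO-labelled libraries were below all 3 WT libraries at both stages, as for 18.0% of all genes at pachytene and 36.5% at LZ. For Mcm7 the KO effect differed by 1.35 (SE 0.33, adjusted p = 0.00984 by limma), with 0.66 at pachytene and -0.69 at LZ. All 3 KO-labelled libraries were above all 3 WT libraries at pachytene, as for 36.4% of all genes. At LZ all 3 were below, as for 36.5%. Both are listed because the test of the difference between the stages itself passed the threshold. Of all genes, 3.49% passed it in the negative and 34.9% in the positive direction. Mcm7 was at percentile 80.9 of all genes and Mcm2 at 0.89. The median of this difference over all genes was 0.72, so Mcm7 was 0.64 above it and Mcm2 was 2.84 below it. With median-ratio scaling the differences were -2.30 for Mcm2 and 0.42 for Mcm7, and the Mcm7 difference was not called.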

How the results depend on the processing

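The depth is unknown, so a level near 0, such as Mcm2 in KO-labelled pachytene replicate 1, has no counting limit. Values below are log2 changes unless called counts, and the causes of the changes were not tested. The scaling between libraries turned the direction of called changes, and leaving out 1 library turned that of uncalled ones near 0. Mcm2 was called lower at pachytene in KO-labelled against WT cells under each alternative run. Whether same-numbered libraries were paired is not given. Such libraries of the groups compared had correlations of -0.17 to 0.26 in their deviations from the group means. Between the stages within a genotype the correlations were all above 0, at 0.027 to 0.26. With 3 libraries per group these values cannot settle whether libraries were paired. With the replicate block 0 members were called higher at pachytene in KO-labelled cells, against 1 without it, and Mcm7 had an adjusted p of 0.0570 by limma.

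For KO-labelled against WT at pachytene, members called higher were 0 before the ERCC scaling, with median ratios, with quantile normalisation, at the same sum per library, with no trend in the variances and with a pseudocount of 0.1. Members called lower were 5 before the ERCC scaling, 4 at the same sum and 1 with quantile normalisation. The median change of all genes was then -0.16, -0.13 and 0.17, beside -0.75, -0.77 and -0.35 over the members. Shares of all genes called are given above for the spike-in scale and median ratios only. Counts under the other settings are therefore not set against a share. Before the ERCC scaling, all KO-labelled pachytene libraries were below all WT pachytene libraries for 6 members, as for 32.2% of all genes. Without 1 library, 0 to 1 were called higher and 1 to 2 lower. At LZ, 0 to 1 were called lower without 1 library. For the difference between the KO effects, 0 were called higher before the ERCC scaling, with median ratios, with quantile normalisation and at the same sum. Called lower were 0 with quantile normalisation and with a pseudocount of 0.1, and 0 to 1 without 1 library.

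Between the stages, 0 members were called higher in either genotype before the ERCC scaling, with median ratios, with quantile normalisation and at the same sum. Called lower in KO-labelled cells were 6 under each of the 4, and in WT cells 7 before the ERCC scaling and 6 under the others. Under the 4, the median change of all genes was -0.48 to 0.057 in KO-labelled and -0.27 to -0.0095 in WT cells. That of the members was -3.32 to -2.43 in KO-labelled and -2.09 to -1.77 in WT cells. With median ratios 29.7% of all genes were called lower in KO-labelled and 18.1% in WT cells. Before the ERCC scaling, all pachytene libraries were below all LZ libraries for 6 members in KO-labelled cells, as for 41.1% of all genes. In WT cells this held for 7 members, as for 34.7%. In WT cells 1 was called higher with only the libraries of these groups in the fit, and 1 to 2 without 1 library. Mcm8 over the arithmetic mean of Mcm2 to Mcm7 was 0.170 in KO-labelled pachytene, 0.313 in WT pachytene and 0.543 in WT LZ libraries, where the geometric mean gave 0.616, 0.485 and 0.600.

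In WT cells, pachytene against LZ changes that turned negative on other scales were -0.27 for E2f4, -0.12 for Gins2, -0.78 for Mcm10, -2.04 for Mcm2, -1.97 for Mcm3, -1.96 for Mcm4, -1.68 for Mcm6, -0.41 for Mcm7, -1.97 for Mcm8, -0.26 for Mtbp, -0.19 for Orc2 and -0.031 for Prim2 before the ERCC scaling. With median ratios they were -0.037 for E2f4, -0.66 for Mcm10, -1.90 for Mcm2, -1.78 for Mcm3, -1.83 for Mcm4, -1.47 for Mcm6, -0.16 for Mcm7, -1.83 for Mcm8 and -0.028 for Mtbp. With quantile normalisation they were -0.049 for Gins2, -0.47 for Mcm10, -1.84 for Mcm2, -1.78 for Mcm3, -1.77 for Mcm4, -1.52 for Mcm6, -0.30 for Mcm7, -1.77 for Mcm8 and -0.022 for Orc2. At the same sum per library they were -0.30 for E2f4, -0.15 for Gins2, -0.90 for Mcm10, -2.16 for Mcm2, -2.05 for Mcm3, -2.09 for Mcm4, -1.74 for Mcm6, -0.44 for Mcm7, -2.09 for Mcm8, -0.29 for Mtbp, -0.22 for Orc2 and -0.058 for Prim2.

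In KO-labelled cells, pachytene against LZ changes that turned negative were -2.67 for Mcm3, -3.16 for Mcm5, -2.45 for Mcm6 and -0.27 for Mcm7 before the ERCC scaling. With median ratios they were -2.27 for Mcm3, -2.81 for Mcm5 and -1.99 for Mcm6. With quantile normalisation they were -2.17 for Mcm3, -2.64 for Mcm5, -2.11 for Mcm6 and -0.19 for Mcm7. At the same sum per library they were -2.83 for Mcm3, -3.36 for Mcm5, -2.56 for Mcm6 and -0.33 for Mcm7.

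For KO-labelled against WT at LZ, changes that turned positive were 0.032 for Mcm5, 0.10 for Mcm6, 0.13 for Mcm8 and 0.23 for Mcmbp before the ERCC scaling. With median ratios they were 0.028 for Mcm5, 0.099 for Mcm6, 0.13 for Mcm8 and 0.23 for Mcmbp. With quantile normalisation they were 0.084 for Mcm3, 0.025 for Mcm4, 0.12 for Mcm5, 0.23 for Mcm6, 0.025 for Mcm7, 0.20 for Mcm8 and 0.32 for Mcmbp. At the same sum per library they were 0.076 for Mcm3, 0.071 for Mcm4, 0.12 for Mcm5, 0.20 for Mcm6, 0.22 for Mcm8 and 0.33 for Mcmbp.

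Differences between the KO effects that turned negative were -0.70 for Mcm3, -0.78 for Mcm5 and -0.77 for Mcm6 before the ERCC scaling. With median ratios they were -0.49 for Mcm3, -0.60 for Mcm5 and -0.53 for Mcm6. With quantile normalisation they were -0.39 for Mcm3, -0.42 for Mcm5 and -0.59 for Mcm6. At the same sum per library they were -0.78 for Mcm3, -0.89 for Mcm5 and -0.83 for Mcm6.

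Without 1 library, changes that turned sign ranged from -0.13 to 0.15 for Mcm2, -0.15 to 0.39 for Mcm4 and -0.38 to 0.038 for Mcm5 between the stages in WT cells. They ranged from -0.12 to 0.20 for Mcm5 and -0.14 to 0.14 for Mcm8 between the stages in KO-labelled cells, from -0.20 to 0.040 for Mcm6 between genotypes at pachytene, and from -0.30 to 0.0135 for Mcm8 in the difference between the KO effects.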
